A study of Mus musculus with 38 samples.

Results

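Somatostatin (Sst) interneurons were examined in single-nuclei RNA-seq of the adult mouse cortex after Trim28 had been deleted in the Emx1 lineage. Trim28 is the co-repressor that silences endogenous retroviruses together with KRAB zinc finger proteins. Of 14296 nuclei barcodes from 4 animals, 1250 passed a rule for inhibitory neurons and 209 of these passed the rule for Sst interneurons. A nucleus was taken as inhibitory when its unique molecular identifiers (UMIs, which each count 1 captured RNA molecule) of Gad1 and Gad2 numbered at least 3 and exceeded those of Slc17a7 and Neurod6. It was chosen as an Sst nucleus when Sst, Grin3a and Elfn1 together also gave at least 3 UMIs, more than Adarb2 and Vip and more than Pvalb, Eya4 and Btbd11. The members were therefore chosen by measured values, and the levels of these rule genes are given as a description only. The Sst nuclei numbered 34 and 59 in control animals 64 and 65, and 57 and 59 in KO animals 60 and 73.

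Cortical Sst interneurons are GABAergic neurons that inhibit mainly the dendrites of pyramidal cells and release the neuropeptide somatostatin beside GABA. They arise in the medial ganglionic eminence of the ventral telencephalon, where Lhx6 and Sox6 direct their differentiation, and migrate into the cortex, whereas Emx1 is expressed by the dorsal progenitors of pyramidal neurons and of much of the cortical glia. Sst interneurons therefore lie outside the lineage in which Cre was driven. The class is divided into subtypes, among them Martinotti cells and long-range projecting cells with Chodl and Nos1.

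The study crossed mice with loxP-flanked Trim28 to an Emx1-Cre line that carried a gtRosa allele. By the labels all animals used here carried Emx1-Cre (+/-), although a figure legend of the study calls the controls of the bulk cortex Cre-negative. Controls were Trim28-fl (+/-) and so had 1 Trim28 allele excised in the Emx1 lineage, and KO animals were Trim28-fl (+/+) with both alleles excised. An age of 3 months is given for the animals of the RNA-seq. Nuclei of dissected cortex were sorted and run on a 3' single-cell chip, 1 library for each of 2 control and 2 KO animals. The same 4 animals and 1 further animal of each genotype, 77 as control and 76 as KO, gave bulk RNA-seq of the cortex. A comparison between genotypes here is thus one between the loss of 1 and of 2 alleles in neighbouring cells, and the animal was the replicate throughout, with 2 per group in the nuclei.

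The UMIs of the Sst nuclei summed to 405458 and 784170 in control animals 64 and 65, and to 625092 and 620443 in KO animals 60 and 73. Their median UMIs per nucleus were 11419.5 and 12477 in the controls and 10604 and 9354 in the KO animals, both KO animals lying below both controls. UMIs of 12 glial genes reached 138 and 107 per 1000000 in the Sst nuclei of the controls against 73.6 and 59.6 in the KO animals. UMIs of the excitatory genes Slc17a7 and Neurod6 went the other way, with 9.87 and 11.5 per 1000000 in the controls and 25.6 and 22.6 in the KO animals. The genotypes hence did not overlap in median depth or in these sums of glial and excitatory genes, and the part of these differences in the results below was not tested except where a value is given. Between 0 and 20 barcodes were shared by any pair of libraries, and none of them belonged to an Sst nucleus. Control animal 65 stood apart in that 9 of its 59 nuclei held no Sst UMI, against 1 of 34, 3 of 57 and 2 of 59 in animals 64, 60 and 73.

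The label was checked against genes that the rule had not used. Crhbp, the secreted protein that binds corticotropin-releasing hormone, stood at 104 and 86.7 UMIs per 1000000 in the Sst nuclei of the controls and at 118 and 122 in those of the KO animals. In the excitatory nuclei of the 4 animals it did not exceed 1.11 per 1000000, and in the Pvalb nuclei it lay between 10.99 and 19.07. Lhx6, the transcription factor of neurons from the medial ganglionic eminence, stood at 78.9, 71.4, 75.2 and 90.3 per 1000000 in animals 64, 65, 60 and 73. It reached 48.6 to 75.4 per 1000000 in the Pvalb nuclei, which share this origin, and at most 6.48 in nuclei with Adarb2 or Vip. At least 1 Sst UMI was found in 92.8% of the Sst nuclei (95% exact binomial interval 88.4 to 95.9), but also in 22.4% of excitatory nuclei (21.2 to 23.5), which as a class should lack the gene. Crhbp and Lhx6 thus went with the name of the class. Only 2 nuclei entered at the threshold of 3 UMIs and 3 failed with 2.

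**Figure D1:**
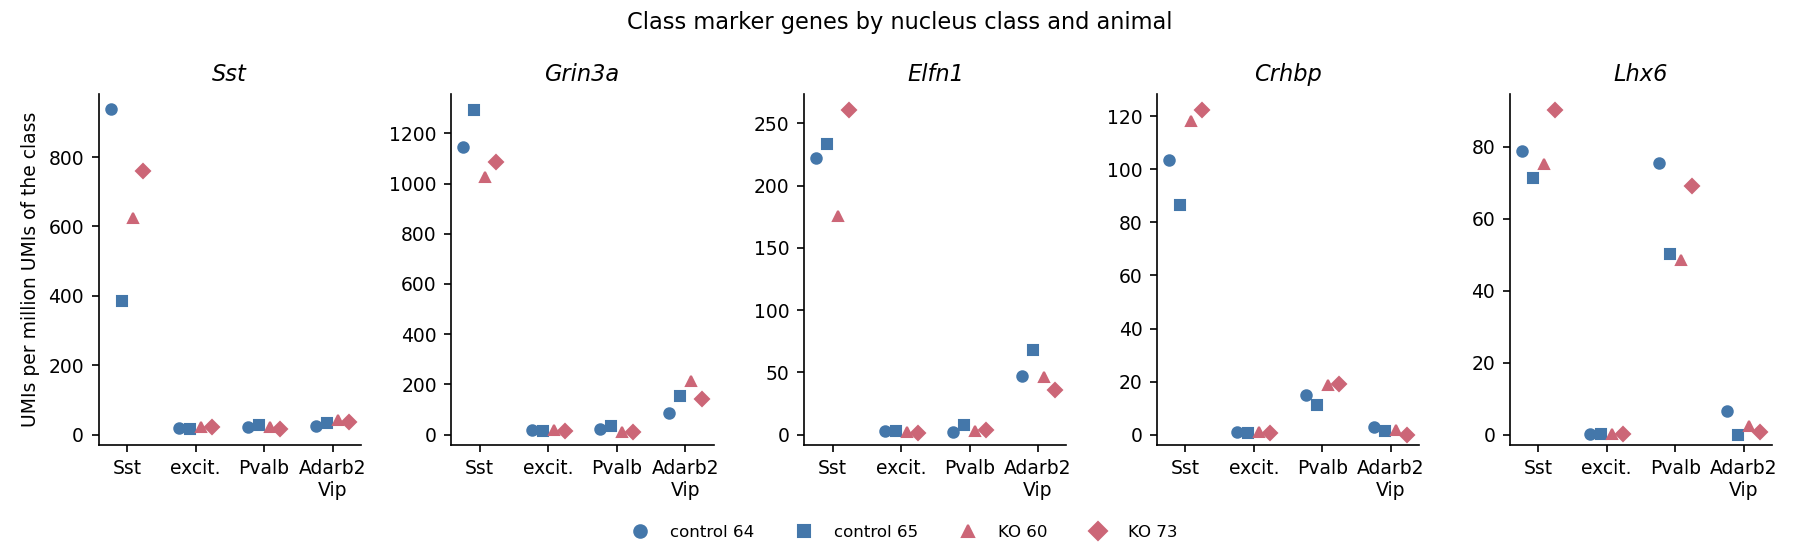
UMIs per 1000000 UMIs of the class (vertical axes, linear) of 5 marker genes in Sst, excitatory, Pvalb and Adarb2 Vip nuclei (horizontal axis), 1 point per animal. Sst, Grin3a and Elfn1 were used to choose the nuclei; Crhbp and Lhx6 were not, and Lhx6 lies at 71.4 to 90.3 in Sst nuclei and at 48.6 to 75.4 in Pvalb nuclei.

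Beyond the rule genes, 244 genes at a mean of at least 50 counts per 1000000 (CPM, scaled by TMM factors) were higher in the Sst nuclei than in each of the 3 other neuron classes in every animal. This is a description of the class, since the nuclei were sorted into classes by expression. Levels are compared here between classes for 1 gene at a time. Among the 15 genes with the greatest ratio to the next class were Hpse, Unc13c, Tmcc3, Ror2, Adamts18, Crhbp, Pcdh11x, Lama4, Ptpru, Klf5, Gm44257, Olfm3, Frmd4b and Rgs9. Hpse, the heparanase that cleaves heparan sulphate, had a mean of 51.5 CPM in the Sst nuclei against at most 1.23 in another class, a ratio of 41.9. Unc13c, a presynaptic protein of vesicle priming, had 631 against 17.0 CPM, a ratio of 37.2.

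Markers of several Sst subtypes were found in every library. Reln, the secreted glycoprotein of Martinotti and other interneurons, was found in 82.3% of the 209 nuclei (76.4 to 87.2), against 16.1% of excitatory nuclei. Npy, the neuropeptide Y gene, was found in 66.0% against 20.7%, and Calb1, which encodes calbindin, in 47.4% against 26.7%. Nuclei with Adarb2 or Vip, with a lower median depth of 7292 UMIs, held Reln in 52.3% and Npy in 56.9% (52.6 to 61.1). The interval for Npy overlapped that of the Sst nuclei (59.2 to 72.4). These intervals pool the nuclei of the 4 animals and leave out the spread between animals. By animal, Npy was found in 73.5% and 49.2% of the Sst nuclei of controls 64 and 65. In KO animals 60 and 73 it was found in 64.9% and 79.7%. Hpse was found in 22.0% of the Sst nuclei (16.6 to 28.2) and in 0.534% of excitatory nuclei, and Pdyn, the prodynorphin gene, in 21.1% and 0.830%. Hpse and Pdyn were found together in 21 nuclei, where the product of their shares gives 9.68 nuclei. Nuclei with Hpse held no Cort UMI, and 1 of the 46 held Nr2f2. Chodl, the marker of long-range projecting Sst cells, was found in 6 nuclei (2.87%, 1.06 to 6.14), with 1, 3, 1 and 1 in animals 64, 65, 60 and 73. They held 1, 17, 2 and 1 Chodl UMIs in these animals, most of them in control 65. All 6 also held Nos1, Npy and Tacr1, and none held Reln. The median depth was 10742 UMIs in Sst nuclei and 12039.5 in excitatory nuclei, so the higher shares in Sst nuclei did not come with higher depth.

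The number of Sst nuclei was compared first, because a gene's summed level could change through the makeup of the class. Sst nuclei made up 12.5% and 21.1% of the inhibitory nuclei in control animals 64 and 65 (exact binomial intervals 8.85 to 17.1 and 16.4 to 26.3), and 16.9% and 16.3% in KO animals 60 and 73 (13.0 to 21.3 and 12.7 to 20.6). The means were 16.8% ± 6.03 (SD, n = 2) and 16.6% ± 0.368 (SD, n = 2). The difference of -0.205 percentage points was smaller than the spread between the controls (two-sided exact permutation test, p = 1). With 2 animals against 2 such a test cannot go below 0.333, so it could not pass 0.05. The direction turned when nuclei were thinned to 5000 UMIs before the rule was applied, with a difference of 1.98 points. Of the barcodes of each library, Sst nuclei made up 0.973% and 1.88% in the controls and 1.52% in KO animal 73, with animal 60 between these values.

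Trim28 (chr7:12999114-13031035, GRCm38), the deleted gene, was measured in each animal. In the Sst nuclei it gave 4 and 7 UMIs in the controls and 8 and 4 in the KO animals, which is 9.87 and 8.93 UMIs per 1000000 against 12.8 and 6.45. The values of the genotypes overlapped. The ratio of KO to control was 0.05 on the log2 scale with a counting interval from -1.26 to 1.37. A change within that interval was not detectable at this depth. Without animal 60 the ratio was -0.53, and without animal 73 it was 0.46. The gene lay under the filter on low counts and was not tested with the other genes. In excitatory nuclei, which descend from the targeted lineage, Trim28 stood at 9.37 and 7.39 UMIs per 1000000 in the controls and at 6.07 and 6.56 in the KO animals, a log2 fold change of -0.45 that did not pass edgeR's quasi-likelihood test (Benjamini-Hochberg adjusted p = 0.181). The difference between the KO effects in Sst and excitatory nuclei, 0.42 on the log2 scale, did not pass either (edgeR, adjusted p = 0.995). In bulk cortex Trim28 fell from 20.8, 18.95 and 21.4 CPM in control animals 64, 65 and 77 to 6.07, 8.52 and 8.86 CPM in KO animals 60, 73 and 76. That decrease of -1.39 ± 0.15 (log2, SE) passed edgeR's test with an adjusted p of 3.78e-04, and went with the labels. Which exons the floxed allele removes is not given in the sources used here, so reads of the remaining transcript may enter these counts.

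**Figure D2:**
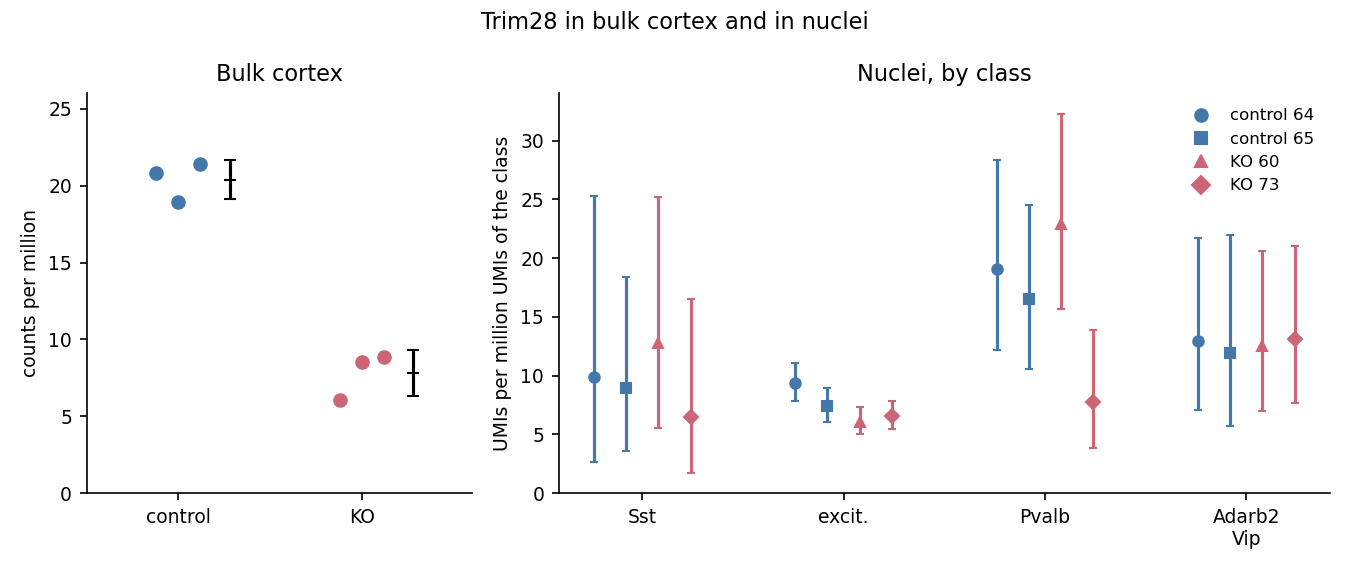
Trim28 in bulk cortex (left, counts per 1000000, 1 point per animal, with mean and SD) and in nuclei by class (right, UMIs per 1000000 UMIs of the class, 1 point per animal with its 95% exact Poisson interval, which covers counting error only). In bulk the 3 KO animals lie between 6.07 and 8.86, below the controls at 18.95 to 21.4, while in Sst nuclei the intervals of all 4 animals overlap.

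KO and control animals were then compared across all genes on the UMIs summed per animal over the Sst nuclei. Of 7812 genes tested, 47 passed an adjusted p of 0.05 in edgeR's quasi-likelihood test (0.602%), 15 higher in KO animals (0.192%) and 32 lower (0.41%). Among the genes that rose were Nap1l5, Slit3, Nrgn and Scg2, and among those that fell were Ano4, Clstn2, Slc4a4 and Erbb4. The log2 fold changes ran from 0.97 to 2.19 for the genes that rose and from -0.59 to -2.77 for those that fell. The KO animals lay beyond both controls for 46 of the 47 genes, the exception being Zfp804b, while among all tested genes both KO animals lay above both controls for 21.6% and below them for 22.4%. In the nuclei with 0 UMIs of Slc17a7 and Neurod6, 45 genes were called and 33 of these were among the 47. The count rested on the tool and on single animals. With limma, chosen after seeing the data, the count was 55, and 36 of these genes were among the 47. It was 2 with DESeq2, which called Ano4 and Clstn2, and 375, 62, 60 and 35 when animal 64, 65, 60 or 73 was left out. In each of these 4 fits 1 group held a single animal, so the other group alone gave the spread. Calls kept or lost there only describe the dependence on single animals. Of the 47 genes, Ano4, Slc4a4, Clstn2, Erbb4, Cntnap2 and Nap1l5 passed in every one. All others lost the call without at least 1 of animals 65, 60 and 73, as given with each group of genes below. The sign of the change was kept under each alternative by every one of the 47 genes that could be fitted.

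The genes are set out by what each is known to do, a grouping made after the calls. Ano4, a member of the anoctamin family of membrane proteins (chr10:88948994-89344762), stood at 399 and 488 CPM in the controls and at 175 and 222 CPM in the KO animals. It was 2.25-fold lower in the KO animals (log2 fold change -1.17 ± 0.19, edgeR adjusted p = 0.0164) and passed in all 17 alternatives run. Slc4a4, the electrogenic sodium bicarbonate cotransporter (chr5:88886818-89239653), fell from 105 and 163 CPM to 52.5 and 36.8 CPM (-1.63 ± 0.28, edgeR adjusted p = 0.0164). It is abundant in astrocytes, and in nuclei with at most 1 UMI of the glial genes its change was -1.65 (edgeR adjusted p = 0.0200). Kcnh1, a voltage-gated potassium channel, fell from 65.3 and 100.3 to 28.6 and 35.2 CPM (-1.43 ± 0.30). Kcnh1 passed in 1 of the 4 fits without 1 animal, and not without animal 65 (-1.03), 60 (-1.27) or 73 (-1.57). These are 3 genes of ion transport or of families with such members. In each the higher KO animal stayed below the lower control, as in 22.4% of all tested genes, which adds nothing beyond the calls.

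Receptors and signalling enzymes were lower in KO animals in 5 cases. Erbb4, the neuregulin receptor tyrosine kinase that promotes excitatory synapses on interneurons (chr1:68032186-69108059), stood at 673 and 2099 CPM in control animals 64 and 65 and at 482 and 190.3 CPM in KO animals 60 and 73 (-2.06 ± 0.37, edgeR adjusted p = 0.0191). Its level in animal 65 was uneven between nuclei, at 1286 CPM over the nuclei with an Sst UMI against 2099 CPM over all. In nuclei with at least 1 Sst UMI the change was -1.61 (edgeR adjusted p = 0.0102), and without animal 65 it was -0.9998. Erbb4 did not pass in nuclei with at most 1 UMI of the glial genes (-1.37, edgeR adjusted p = 0.125). Nor did it pass in DESeq2, where the change was -2.03 (DESeq2 adjusted p = 0.9998). Pvalb nuclei stood at 10488 and 8509 CPM in the controls. Htr7, a serotonin receptor coupled to adenylyl cyclase, fell from 45.2 and 49.5 to 14.3 and 11.2 CPM (-1.89 ± 0.40). Chrm2, the M2 muscarinic receptor, fell from 148 and 198 to 103 and 46.4 CPM (-1.23 ± 0.28). Adcy8, a calcium-stimulated adenylyl cyclase, fell from 161 and 257 to 97.1 and 91.1 CPM (-1.19 ± 0.23). Nos1, the neuronal nitric oxide synthase, fell from 85.3 and 122 to 55.7 and 17.6 CPM (-1.54 ± 0.35), but 54.5% of its UMIs lay in 3 of the 209 nuclei. Of these 5, Htr7, Chrm2, Adcy8 and Nos1 passed neither without animal 65 (-1.80, -0.98, -0.77 and -1.21) nor without animal 73 (-1.72, -0.76, -1.13 and -0.93). Without animal 60 the changes of Chrm2, Nos1 and Erbb4 were -1.91, -2.57 and -2.87. All 5 had both KO animals below both controls, as did 22.4% of all tested genes. They were called on the same values, so this adds nothing beyond the calls.

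Cell surface proteins of adhesion and axon guidance changed in both directions. Clstn2, a calsyntenin of the postsynaptic membrane (chr9:97444395-98033181), fell from 653 and 797.4 to 280.0 and 390.2 CPM (-1.12 ± 0.19, edgeR adjusted p = 0.0164). Cntnap2, a neurexin family protein that clusters potassium channels, fell from 6188 and 6183 to 4001 and 3641 CPM (-0.69 ± 0.13). Ntng1, the GPI-anchored netrin G1, fell from 67.8 and 43.2 to 14.3 and 12.8 CPM (-1.95 ± 0.40). The teneurins Tenm1 and Tenm3, which bind latrophilins across the synapse, changed by -0.84 ± 0.19 and -0.94 ± 0.21, the adhesion molecule Ncam2 by -0.76 ± 0.16, and the atypical cadherin Fat1 by -1.66 ± 0.36. Without animal 73, Ntng1, Tenm1, Tenm3, Ncam2 and Fat1 did not pass (-1.88, -0.78, -0.83, -0.81 and -1.39), and neither did Tenm1, Tenm3 and Ncam2 without animal 60 (-0.89, -1.05 and -0.69) or Tenm1 without animal 65 (-0.57). Slit3, the secreted ligand of Robo receptors (chr11:35121224-35708507), went the other way, from 25.1 and 38.1 CPM in the controls to 109.8 and 81.6 CPM in the KO animals (1.52 ± 0.30, edgeR adjusted p = 0.0258). Of its 69 UMIs in animal 60, 29 came from the 3 nuclei without an Sst UMI, and in nuclei with Sst the change was 1.10 and did not pass (edgeR adjusted p = 0.100). It was 0.76 in the nuclei with 0 UMIs of Slc17a7 and Neurod6 and did not pass there either (adjusted p = 0.432), nor did it without animal 60 (1.30).

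Further genes that fell act in the cytoskeleton and in cell polarity, in sorting or in splicing. Pard3b, a PAR3-like polarity protein, stood at 27.6 and 55.9 CPM in the controls and 7.96 and 4.80 CPM in the KO animals (-2.77 ± 0.51), the lowest log2 fold change among the 47 genes. This rested on 63 UMIs in 21 nuclei, and without animal 65 the change was -2.07 and did not pass (edgeR adjusted p = 0.418). Srgap1, a GTPase activating protein downstream of Slit and Robo, changed by -1.59 ± 0.33, and Mtss1 and Phactr2, which both act on actin, by -1.14 ± 0.25 and -2.07 ± 0.42. Sorcs3, a sorting receptor of the VPS10 family, fell from 57.7 and 103 to 31.8 and 9.59 CPM (-2.02 ± 0.39). Dab1, the adaptor that carries the reelin signal, fell from 509.6 and 869.8 to 348 and 275 CPM (-1.16 ± 0.21). Srrm4, the neuronal splicing regulator of microexons, changed by -1.33 ± 0.31, and Msra, a methionine sulfoxide reductase, by -1.59 ± 0.33. Brinp3, Csmd1, Lrp1b, Thsd7b, Zfp804b and the non-coding genes Gm13629 and Gm28905 were also called lower, with log2 fold changes between -2.75 for Zfp804b and -0.59 for Csmd1. Snrpn is given with the imprinted genes. Without animal 65, Phactr2, Sorcs3, Dab1, Msra and Srrm4 did not pass (-1.82, -1.47, -0.71, -0.96 and -0.80), nor did Mtss1, Csmd1, Lrp1b, Gm13629 and Gm28905 (-0.998, -0.54, -0.52, -1.09 and -1.94). Without animal 73, Srgap1, Mtss1, Phactr2, Sorcs3, Msra and Srrm4 did not pass (-1.24, -0.97, -1.87, -1.39, -1.11 and -1.17), nor did Brinp3, Csmd1, Lrp1b, Thsd7b and Gm13629 (-0.83, -0.55, -0.64, -0.75 and -0.95). Mtss1, Srrm4, Csmd1 and Gm28905 did not pass without animal 60 (-1.31, -1.47, -0.62 and -2.02), where Sorcs3, Msra and Thsd7b were at -3.10, -2.25 and -1.90. Gm28905 was at -3.56 without animal 73. Zfp804b rested on animal 65, where it reached 362 CPM, and its change was -0.38 without that animal (edgeR adjusted p = 0.842), -3.46 without 64, -5.04 without 60 and -1.88 without 73. In nuclei with 0 UMIs of Slc17a7 and Neurod6 it was -1.45 and did not pass (adjusted p = 0.170).

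Of the genes that rose, several are known from Ras or calcium signalling. Nap1l5, an imprinted gene of the nucleosome assembly protein family (chr6:58905233-58907076), stood at 92.9 and 78.7 CPM in the controls and 208 and 230.3 CPM in the KO animals (1.38 ± 0.22, edgeR adjusted p = 0.0164), and it was spread widely, being found in 154 of the 209 nuclei. Spred1, an inhibitor of the Ras to MAP kinase cascade, rose from 52.7 and 83.8 to 172 and 142 CPM (1.13 ± 0.24). Etv5, an ETS factor induced by that cascade, rose from 10.0 and 22.9 to 50.9 and 68.8 CPM (1.70 ± 0.37), and Rasl11a, a small Ras-like GTPase, from 5.02 and 8.89 to 33.4 and 36.8 CPM (2.19 ± 0.49). Rasl11a, the highest log2 fold change among the 47 genes, rested on 53 UMIs in 38 nuclei, with 2 of the UMIs in animal 64. Nrgn, the calmodulin-binding neurogranin of excitatory neurons, rose from 22.6 and 19.05 to 70.0 and 60.8 CPM (1.68 ± 0.33). In the 182 nuclei with 0 UMIs of Slc17a7 and Neurod6 its change was 0.99 and did not pass (edgeR adjusted p = 0.270), and there Camk2n1 and Etv5 did not pass either (0.88 and 1.51, adjusted p = 0.102 and 0.0843). Camk2n1, an inhibitor of CaMKII, rose from 82.8 and 71.1 to 142 and 173 CPM (1.051 ± 0.23), and Akap5, the postsynaptic anchor of protein kinase A, from 10.0 and 24.1 to 62.0 and 65.6 CPM (1.73 ± 0.36). Nrgn, Rasl11a and Camk2n1 did not pass without animal 65 (1.53, 2.75 and 0.92), and without that animal Etv5 and Akap5 were at 2.55 and 2.64. Etv5, Rasl11a, Camk2n1 and Akap5 did not pass without animal 73 (1.484, 2.13, 0.90 and 1.71), nor did Spred1, Rasl11a and Nrgn without animal 60 (1.01, 2.27 and 1.57). In all of these both KO animals lay above both controls, as in 21.6% of all tested genes, which adds nothing beyond the calls.

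The remaining genes that rose were Mat2a, Scg2, Rnf144b, Tmem208, Mllt11, Gm27032 and Gm44151. Mat2a, the enzyme that makes the methyl donor S-adenosylmethionine, rose from 100.4 and 94.0 to 193 and 216 CPM (1.08 ± 0.21). Scg2, the secretogranin of dense-core vesicles, rose from 103 and 71.1 to 161 and 184 CPM (1.04 ± 0.23), and Rnf144b, an E3 ubiquitin ligase, from 103 and 131 to 226 and 239.9 CPM (0.97 ± 0.21). Gm27032, a non-coding gene whose annotated span holds Mir124a-3, rose from 72.8 and 54.6 to 148 and 144 CPM (1.24 ± 0.24). Gm44151, a predicted gene, changed by 1.22 ± 0.22, Tmem208, an endoplasmic reticulum protein, by 1.34 ± 0.28, and Mllt11 by 1.15 ± 0.26. Without animal 65, Scg2, Gm27032, Gm44151 and Tmem208 did not pass (0.74, 1.00, 0.87 and 1.00). Without animal 73, Mat2a, Scg2, Rnf144b and Tmem208 did not pass (0.99, 0.93, 0.93 and 1.33), and without animal 60 Rnf144b and Mllt11 did not (1.02 and 0.90). Of the 47 genes, 21 overlap another annotated gene on the same strand, Erbb4 with 8 and Cntnap2 with 24 such entries, and reads in shared stretches cannot be assigned to 1 gene with certainty.

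The choice of nuclei also moved genes across the threshold, and a lost call does not by itself mean a smaller change. In nuclei with 0 UMIs of Slc17a7 and Neurod6, among the 14 genes that lost the call were Camk2n1, Chrm2, Etv5, Gm13629, Mllt11, Nos1, Nrgn, Scg2, Slit3, Srrm4, Tenm1, Tenm3 and Zfp804b. In nuclei with at most 1 UMI of the glial genes, 16 of the 47 genes were called, which were Ano4, Slc4a4, Gm27032, Dab1, Brinp3, Mat2a, Rnf144b, Pard3b, Thsd7b, Gm28905, Adcy8, Akap5, Chrm2, Scg2, Nos1 and Zfp804b. With a threshold of 2 UMIs for the rule genes, 26 of the 47 remained called. Among those that did not were Htr7, Chrm2, Nos1, Kcnh1, Etv5, Rasl11a, Nrgn, Scg2, Slit3, Fat1, Tenm1, Tenm3, Thsd7b and Zfp804b. Etv5, Kcnh1, Fat1 and Rasl11a stood there at 1.64, -1.39, -1.65 and 2.19 (edgeR adjusted p = 0.0507, 0.0507, 0.0510 and 0.0510). Slit3 and Zfp804b moved further, to 0.99 and -1.67 (edgeR adjusted p = 0.132 and 0.128).

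**Figure D3:**
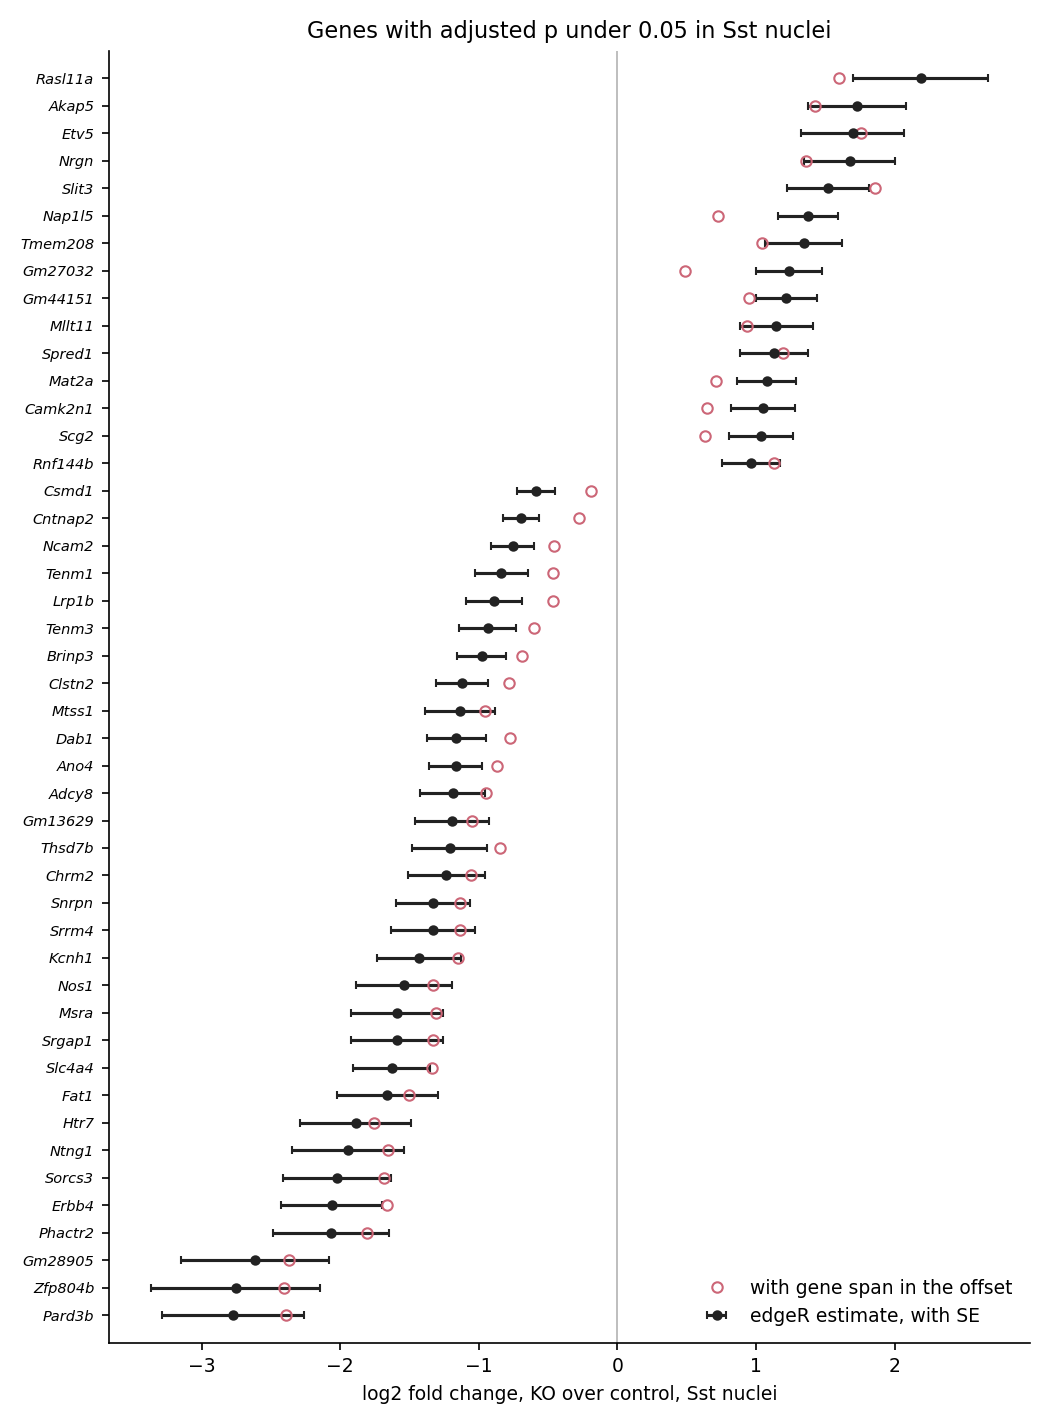
Log2 fold change of KO over control in Sst nuclei (horizontal axis) for 46 of the 47 genes with an adjusted p under 0.05 (black). Bars are standard errors derived from edgeR's F statistic, in which the spread between the 2 animals per group is moderated over all tested genes. Open circles give the same gene with a trend over gene span in the offset, with which 14 of the 47 genes still passed.

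The direction of change went with the length of the genes. The genes that fell had a median genomic span of 358 kb and those that rose one of 8.87 kb, against 40.6 kb for all tested genes. Over 200 kb were 23 of the 32 genes that fell (71.9%), 1 of the 15 that rose, Slit3, and 10.3% of all tested genes. The trend ran through the whole table. With the tested genes split by span into 5 groups of equal size, the median log2 fold change was 0.36, 0.09, -0.01, -0.11 and -0.23 from the shortest to the longest group. The excitatory nuclei gave 0.32 and -0.20 in the shortest and longest group, the Pvalb nuclei 0.34 and -0.18, and the nuclei with Adarb2 or Vip 0.25 and -0.13. In all 4 classes, then, short genes were higher and long genes lower in the KO libraries, which also held fewer UMIs per Sst nucleus. What sets this trend was not tested.

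With a trend over gene span in the offset of each library, 17 genes passed in the Sst nuclei, 8 higher and 9 lower, and 14 of them were among the 47. Slit3 (1.86, edgeR adjusted p = 0.00170) and Rnf144b (1.13, adjusted p = 0.0150) rose in this fit. Spred1, Etv5 and Gm44151 rose as well, and so did Il1rapl2, Gfod1 and Rock2, which had not passed before. Erbb4 (-1.67, adjusted p = 0.0150), Slc4a4 (-1.34, adjusted p = 0.0238) and Ano4 (-0.87, adjusted p = 0.0463) fell, and among the others that fell were Pard3b, Sorcs3, Msra, Zfp804b and Gm28905. Nap1l5 with 0.73 (adjusted p = 0.183), Cntnap2 with -0.28 (adjusted p = 0.669) and Clstn2 with -0.78 (adjusted p = 0.0718) did not pass it. Nap1l5 has a span of 1.84 kb and Cntnap2 one of 2245 kb, and both moved towards 0 in this fit.

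**Figure D4:**
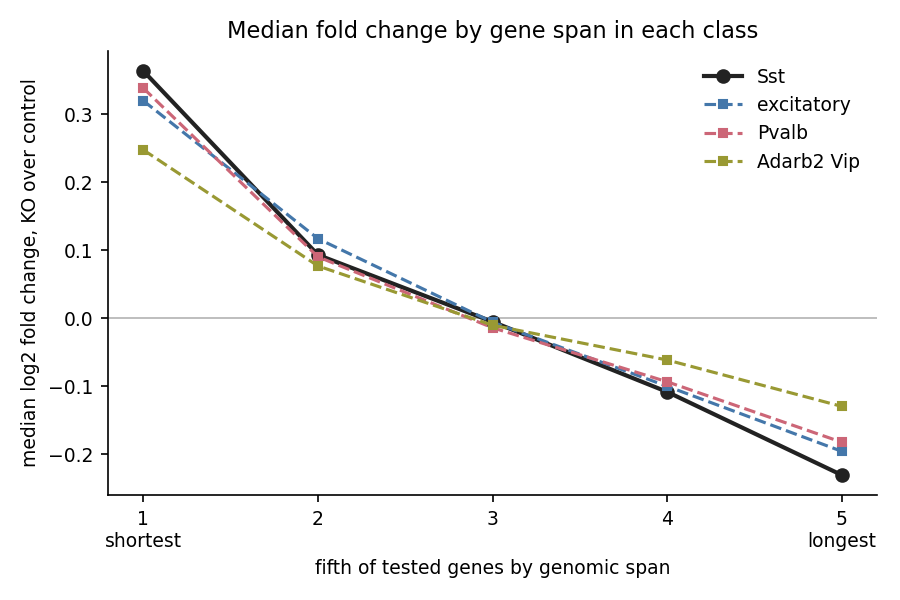
Median log2 fold change of KO over control (vertical axis) over 5 equal groups of the tested genes by genomic span (horizontal axis, shortest to longest) in Sst, excitatory, Pvalb and Adarb2 Vip nuclei. In Sst nuclei it goes from 0.36 to -0.23, and each of the other classes declines in the same order.

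Some changes came from few nuclei. Of the 47 genes, 15 had over 20% of their UMIs in 3 of the 209 nuclei, and 2 of these 15 had risen. Erbb4 had 31.2%, Slit3 31.9%, Slc4a4 36.3%, Pard3b 47.6% and Zfp804b 63.3% of their UMIs in 3 nuclei, while Nap1l5 had 6.68% and Ano4 9.09%. Slc4a4 was found in 32.4% and 37.3% of the Sst nuclei of the controls and in 21.1% and 11.9% of those of the KO animals. Nap1l5 was found in 61.8% and 55.9% of the control nuclei and in 91.2% and 81.4% of the KO nuclei, although the KO nuclei were less deep.

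The gene lists described next are read against the background of 0.192% called higher and 0.41% called lower, and against the median log2 fold change of -0.01 over all tested genes. At an unadjusted p under 0.05 in edgeR, 6.34% of all tested genes were higher in KO animals and 6.72% lower. A list count near these shares says nothing particular of the list. Of the same 7812 genes, 1020 had an unadjusted p under 0.05 in edgeR and 245 in DESeq2. The list counts at an unadjusted p below are those of edgeR only. Rule genes that the lists hold are bound by the choice of nuclei, so that their values are a description, and this covers Sst, Grin3a and Elfn1 among the 5 class markers. Neither Crhbp nor Lhx6 passed edgeR's test, an unadjusted p of 0.05, DESeq2 or limma. Sst stood at 954 and 382 CPM in the controls and 620.5 and 755 CPM in the KO animals. Grin3a, a subunit of NMDA receptors, stood at 1165 and 1289 CPM in the controls and 1019.8 and 1076 CPM in the KO animals. Crhbp stood at 105 and 86.3 CPM in the controls and 118 and 122 CPM in the KO animals, and Lhx6 at 80.3 and 71.1 CPM in the controls and 74.8 and 89.5 CPM in the KO animals. The levels of Sst and Lhx6 overlapped between the genotypes, and Sst varied more between the controls than between the genotypes. Of 28 subtype markers, 11 were tested and Nos1 fell. Calb1 (0.79, edgeR adjusted p = 0.155) and Etv1 (1.23, adjusted p = 0.109) had higher values in both KO animals and did not pass, and Npy stood at 444 and 143 CPM in the controls and 243 and 232 in the KO animals. Of 18 tested genes in a list of interneuron transcription factors, the 1 that fell was Erbb4, a receptor that the list also holds. At an unadjusted p under 0.05, 5 genes of that list were higher and 2 lower. Nr2f1, a nuclear receptor of interneuron development, was among the 5, at 17.6 and 20.3 CPM in the controls and 38.2 and 49.6 CPM in the KO animals (1.17, edgeR adjusted p = 0.180). Sox6, which directs the fate of Sst and Pvalb interneurons, stood at 1155 and 1124 CPM in the controls and 939 and 903 CPM in the KO animals (-0.31, edgeR adjusted p = 0.390).

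The lists of GABA, glutamate and ion channel genes, which do not hold Htr7, Chrm2 or Kcnh1, gave no call in edgeR or DESeq2. Of 21 tested genes of GABA synthesis, transport and receptors, 3 had lower values in KO animals at an unadjusted p under 0.05 and none higher, with a median of -0.25. Gabrg3, a GABA-A receptor subunit, came nearest with 630.1 and 1269 CPM in the controls and 535 and 493 CPM in the KO animals (-0.90, edgeR adjusted p = 0.0639). Of the enzymes that make GABA, both of which belong to the rule, Gad1 stood at 136 and 196 CPM in the controls and 215 and 195 CPM in the KO animals and Gad2 at 392 and 329 CPM in the controls and 277 and 309 CPM in the KO animals. Among 31 tested genes of glutamate receptors and the excitatory synapse, 8 were lower and 1 higher at an unadjusted p under 0.05, with a median of -0.17. Both KO animals lay below both controls for 19 of the 31 and above them for 2, against 22.4% and 21.6% of all tested genes. Of 31 tested ion channel genes, 5 were lower and 1 higher at an unadjusted p under 0.05, with a median of -0.20. Kcnip4, which modulates A-type potassium channels, stood at 1890.2 and 5343 CPM in the controls and 2094 and 737 in the KO animals (-1.36, edgeR adjusted p = 0.0888). Limma called 1 gene lower in each of the last 2 lists. None of 12 tested neuropeptide and receptor genes passed any of these tools, and 1 was higher at an unadjusted p under 0.05. The part of the span trend in these medians was not tested.

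Genes of activity and imprinting held a few of the calls. Of 7 tested activity-induced genes, Scg2 rose and none fell, with a median of 0.93, and 4 were higher at an unadjusted p under 0.05, against 6.34% of all tested genes. Scg2 did not pass in nuclei with 0 UMIs of Slc17a7 and Neurod6 (0.96, edgeR adjusted p = 0.0712) or with gene span in the offset (0.63, edgeR adjusted p = 0.324). Neither did it pass without animal 65 (0.74) or 73 (0.93), or in DESeq2, where the change was 1.02. Vgf, a secreted neuropeptide precursor, stood at 284 and 113 CPM in the controls and 282 and 409 CPM in the KO animals (0.88, edgeR adjusted p = 0.180), and Homer1, a postsynaptic scaffold with an activity-induced short form, at 62.8 and 97.8 CPM in the controls and 178 and 114 CPM in the KO animals (0.80, adjusted p = 0.183). The list's summed level was 535 and 446 CPM in the controls and 832 and 931 CPM in the KO animals, and 1105 CPM in excitatory nuclei on average over the 4 animals. UMIs of Slc17a7 and Neurod6 were likewise higher in both KO animals, and their part and that of the span trend in the list's median were not tested. Of 24 tested imprinted genes, Nap1l5 rose and Snrpn fell. Snrpn did not pass without animal 73 (-1.13). Snrpn, a paternally expressed splicing protein whose annotation overlaps Snurf, stood at 113 and 105 CPM in the controls and at 49.3 and 36.8 CPM in the KO animals (-1.33 ± 0.26, edgeR adjusted p = 0.0274). The maternally expressed non-coding RNA Meg3 gave 9536 and 10758 CPM in the controls and 11952 and 11181 CPM in the KO animals (0.19, adjusted p = 0.514), and Kcnq1ot1, the antisense RNA of its imprinted cluster, gave 643 and 650.1 CPM in the controls and 415 and 427 CPM in the KO animals (-0.62, adjusted p = 0.0907). The list's median was 0.06.

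Genes that act with Trim28 and genes of the interferon response gave no call. Of 22 tested genes of the silencing machinery around Trim28, which include Atrx, Dnmt3a and Ehmt1, none passed edgeR, DESeq2 or limma, and 3 of the 22 were lower at an unadjusted p under 0.05, against 6.72% of all tested genes. Atrx, a chromatin remodeller at heterochromatin, stood at 208 and 274 CPM in the controls and 231 and 289 CPM in the KO animals (0.09, edgeR adjusted p = 0.898). Of 33 interferon-stimulated and antigen presentation genes only 6 were tested, 11 had 0 UMIs in all Sst nuclei, and none passed any of these tools. Ifit1, induced by interferon, gave 15.1 and 17.8 CPM in the controls and 27.0 and 51.2 CPM in the KO animals (1.21, edgeR adjusted p = 0.231). Of 56 clustered protocadherins, 55 had 0 UMIs in the Sst nuclei and none could be tested. Their summed level was 5.02 and 3.81 CPM in the controls and 1.59 and 3.20 CPM in the KO animals. It was 9.35 CPM in excitatory nuclei on average over the 4 animals. Few UMIs were thus counted for them in both classes, and whether this came from low expression or from the counting was not tested. In bulk cortex 20 of 53 tested rose and 2 fell, against 1.33% of all genes called there.

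Of the marker lists of other cells, those of oligodendrocytes and their progenitors had lower sums in both KO animals than in both controls, and those of astrocytes, microglia, vascular cells, excitatory neurons and other interneurons overlapped between the genotypes. The 11 oligodendrocyte markers summed to 95.4 and 128 CPM in the controls and 57.3 and 46.4 CPM in the KO animals. The 13 astrocyte markers summed to 700.4 and 410.2 CPM in the controls and 441 and 390.2 CPM in the KO animals, with Gpc5 the most abundant, and of the 4 tested Slc4a4 was the one that fell. Microglial markers summed to 103 and 48.3 CPM in the controls and 68.4 and 63.96 CPM in the KO animals and vascular and meningeal markers to 87.9 and 41.9 CPM in the controls and 50.9 and 67.2 CPM in the KO animals, with no call among the 2 and the 1 tested or in DESeq2 or limma, and none at an unadjusted p under 0.05. Markers of oligodendrocyte progenitors summed to 505 and 476 CPM in the controls and 359.6 and 401 CPM in the KO animals, and of 2 tested 1 was higher and 1 lower at an unadjusted p under 0.05, neither called. Of 7 tested excitatory neuron markers Nrgn rose, and the 16 markers of that list summed to 728 and 664 CPM in the controls and 759 and 675 CPM in the KO animals. Markers of Pvalb interneurons summed to 389 and 571 CPM in the controls and 434 and 473 CPM in the KO animals, and those of Adarb2, Vip and Lamp5 interneurons to 1250.1 and 1148 CPM in the controls and 1190.1 and 1354 CPM in the KO animals, with no call in either by edgeR, DESeq2 or limma and 0 and 1 genes at an unadjusted p under 0.05. Genes encoded by mitochondria, which measure cytoplasm carried over with nuclei, summed to 1433 and 1462 CPM in the controls and 2808 and 1676 CPM in the KO animals. Their 11 tested members had a median of 0.62, and 7 were higher at an unadjusted p under 0.05, but none was called. Xist, the one sex-linked gene tested, stood at 1185 and 921 CPM in the controls and 1088 and 1067 CPM in the KO animals and overlapped between the genotypes. The part of glial and cytoplasmic RNA in the calls was not tested beyond the fit on nuclei with at most 1 UMI of the glial genes, which kept 160 of the 209 nuclei and called 27 genes, 16 of them among the 47.

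The study lists 10 genes for excitatory neurons and 1, Snhg11, for inhibitory neurons. These lists were made on the same nuclei and are not independent evidence. None of the 11 passed in the Sst nuclei by edgeR, DESeq2 or limma, and 6 had an unadjusted p under 0.05 in edgeR, 3 higher and 3 lower. Snhg11, a long non-coding RNA, stood at 8417 and 6539.6 CPM in the controls and 9559 and 10287 CPM in the KO animals (0.41, edgeR adjusted p = 0.180). Cdh18, a type II cadherin, gave 427 and 395 CPM in the controls and 199 and 309 CPM in the KO animals (-0.69, adjusted p = 0.129), and fell in excitatory nuclei (-1.59, adjusted p = 0.00353), with a tested difference of 0.90 (adjusted p = 3.81e-04). Pak7, a p21-activated kinase, stood at 161 and 173 CPM in the controls and 164 and 166 CPM in the KO animals in the Sst nuclei, and the difference from its fall in excitatory nuclei was 0.88 (adjusted p = 0.00359). For Tmem132d the difference was 0.97 (adjusted p = 0.00135). Hecw2 with -0.32, Sgcz with -0.64, Pde10a with 0.41, Gm26835 with 0.42 and Hs3st4 with -1.11 in Sst nuclei had differences that did not pass.

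The same contrast was run in 3 other classes from the same animals, to see where the Sst nuclei differed. Excitatory nuclei, with 5058 members, gave 1210 calls among 15464 genes (7.82%). Pvalb nuclei, with 466 members, gave 0 of 10211 in edgeR (0%), with 1286 at an unadjusted p under 0.05, and the 547 nuclei with Adarb2 or Vip gave 0 of 9939 (0%), with 759 at an unadjusted p under 0.05. DESeq2 and limma were not run on these classes. Of the 47 genes, 21 were also called in the excitatory nuclei, 9 higher and 12 lower. Their 15 genes that rose had a median log2 fold change of 0.69 there, 0.53 in Pvalb nuclei and 0.43 in nuclei with Adarb2 or Vip. The 32 that fell had medians of -0.39, -0.27 and -0.20. These values come from the same 4 libraries and share their animals, depth and span trend.

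The difference between the KO effects was tested with the animal as a block. Against excitatory nuclei it passed for 139 of 14880 genes (0.934%), 20 of them among the 47. For Erbb4 it was -2.15 ± 0.19 (log2, SE; edgeR adjusted p = 3.14e-27), in excitatory nuclei whose levels were 32.3 and 30.1 CPM in the controls and 41.4 and 28.6 in the KO animals. For Hunk, a kinase related to AMPK, it was 3.25 ± 0.23 (adjusted p = 1.45e-42). Hunk had a log2 fold change of -2.63 in excitatory nuclei and stood at 72.8 and 108 CPM in the controls and 146 and 155 CPM in the KO animals in the Sst nuclei. Lama4 and Adamts18, both among the leading genes of the Sst nuclei, likewise fell in excitatory nuclei (-1.74 and -2.80) and gave -0.20 and -0.31 in Sst nuclei, neither of which passed. The 139 calls were 75 without animal 65 and 45 without animal 73, and 18 when excitatory nuclei were drawn down to the number of Sst nuclei.

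Against Pvalb nuclei the difference passed for 7 of 10194 genes (0.0687%), and 5 of these were among the 47. Slit3 rose in Sst nuclei and stood at 212 and 203 CPM in the Pvalb nuclei of the controls and 125 and 114 in those of the KO animals, a difference of 2.27 ± 0.30 (edgeR adjusted p = 2.21e-04). For Brinp3, an inhibitor of the cell cycle expressed in neurons, the difference was -1.24 ± 0.21 (adjusted p = 0.00534), from 635 and 663 to 366 and 293 CPM in Sst nuclei and from 147 and 216 to 222 and 199 CPM in Pvalb nuclei. Ntng1, Erbb4 and Slc4a4 also differed. Rgs6 and Synpr were the other 2, with log2 fold changes of -0.41 and -0.30 in Sst nuclei and of 1.4803 and -2.04 in Pvalb nuclei, none of which passed.

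Against nuclei with Adarb2 or Vip, 14 of 9771 genes passed (0.143%), 11 of them among the 47. Erbb4 (-1.97), Slc4a4 (-1.58), Dab1 (-1.07) and Brinp3 (-0.95) had a lower KO effect in the Sst nuclei. For Rnf144b the difference was 1.38 (edgeR adjusted p = 0.0234), with a log2 fold change of -0.31 in nuclei with Adarb2 or Vip that did not pass. Erbb4, Slc4a4 and Brinp3 thus had a lower KO effect in Sst nuclei than in both other interneuron classes by a test of the difference with all 4 animals. For Erbb4 and Slc4a4 this rests in part on few nuclei, since 3 Sst nuclei held 31.2% and 36.3% of their UMIs. For Brinp3 that share was lower. The level of Erbb4 in control animal 65 was also uneven between nuclei, as given above. These differences were not tested in nuclei with an Sst UMI only, and their values without 1 animal are not given here. Ano4, by contrast, gave differences of -0.56, -0.81 and -0.58 from the 3 classes, none of which passed (adjusted p = 0.186, 0.253 and 0.608). Nap1l5 and Mat2a also gave no difference that passed against any class. The count against Pvalb nuclei was 56, 25, 29 and 10 without animal 64, 65, 60 or 73, and that against nuclei with Adarb2 or Vip 42, 9, 37 and 17.

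**Figure D5:**
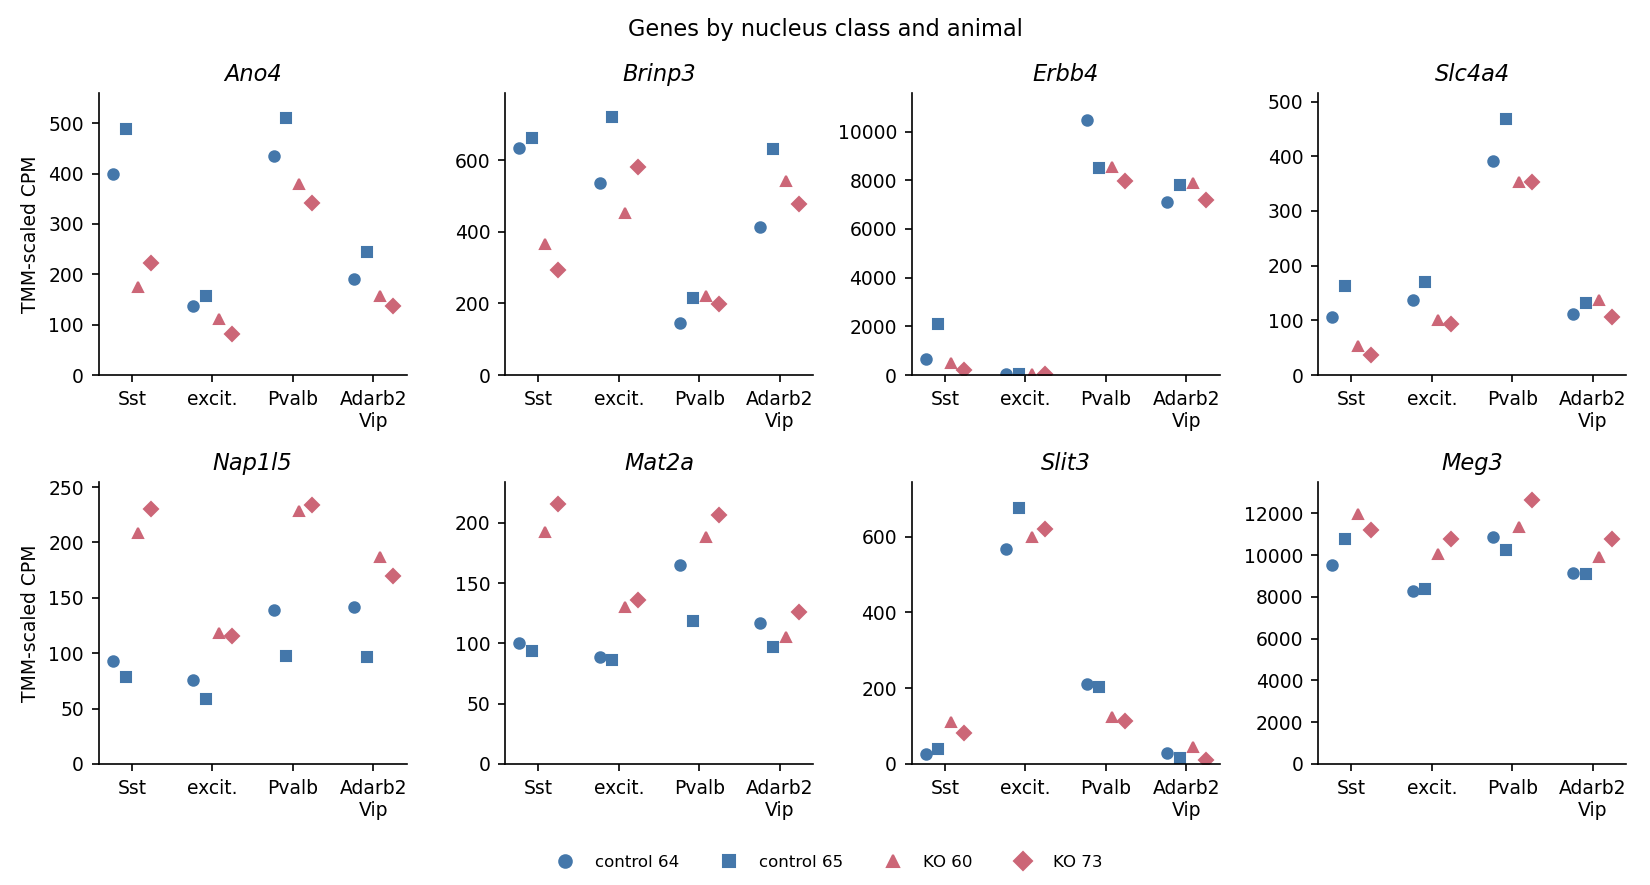
TMM-scaled counts per 1000000 (vertical axes from 0) of 8 genes in Sst, excitatory, Pvalb and Adarb2 Vip nuclei (horizontal axis), 1 point per animal. Ano4 and Nap1l5 keep the order of genotypes in every class, while Brinp3 and Erbb4 separate the genotypes without overlap in the Sst nuclei and overlap in excitatory nuclei and in nuclei with Adarb2 or Vip.

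In bulk cortex, where RNA of Sst interneurons is diluted by all other cells and fewer cells of a type cannot be told apart from less RNA per cell, 45 of the 47 genes were tested. With about 16749000 to 25345100 counts per library, edgeR called 216 of 16271 genes (1.33%), here with a log2 change beyond 0.5 required beside the adjusted p of 0.05. None of the 15 genes that rose in Sst nuclei was called higher there, and 2 of the 32 that fell were called lower, Phactr2 (-0.70, adjusted p = 0.00614) and Chrm2 (-0.52, adjusted p = 0.0386). Sst gave 21.4, 20.1 and 20.2 CPM in control animals 64, 65 and 77 and 17.9, 22.1 and 32.1 CPM in KO animals 60, 73 and 76, a log2 fold change of 0.21 ± 0.17 (edgeR adjusted p = 0.886). The ranges overlapped. Erbb4 (-0.09), Slc4a4 (0.05), Ano4 (-0.05) and Nap1l5 (-0.00) did not pass in bulk (adjusted p = 0.962, 0.994, 0.998 and 0.999).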

How the data were processed

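The authors deposited whole-number UMI counts per gene and nucleus for 4 nuclei libraries (Cell Ranger 3.0, a pre-mRNA reference on GRCm38) and whole-number read counts per gene for 6 bulk libraries (STAR 2.6.0, featureCounts of Subread 1.6.3). The other files of the 38 samples were not used here. Nuclei were chosen by the UMI rule given at the opening, no doublet caller was run, and UMIs were summed per animal. Sums were tested with edgeR 4.0.16 in R 4.3.3 (filterByExpr, TMM factors, quasi-likelihood F test, Benjamini-Hochberg adjustment over all tested genes, adjusted p under 0.05), and differences between classes as interactions with the animal as a block. DESeq2 1.42.0 was an alternative, and bulk TEtranscripts gene counts another. The fits with limma 3.58.1 (voom), with nuclei that held an Sst UMI, with thinned nuclei and with gene span (GENCODE vM21) in the offset were chosen after seeing the data. CPM values and log2 fold changes were computed from the deposited counts. The members, the 24 gene lists (417 genes) and the tests were chosen with earlier results of these data known. Genes named were Trim28, the class markers, the called genes with the 15 largest changes in each direction, the genes the study lists, the 4 most abundant and all called members of each list, the leading genes and the 10 smallest p against excitatory nuclei. The other called genes and some list members were named after their values were seen. Intervals on counts and shares cover counting error only. The p-values of edgeR rest on the spread between animals, 2 per group in the nuclei and 3 in the bulk. That spread is moderated with information from all tested genes, so it is not the spread of each gene's own animals alone. The standard errors given with log2 fold changes were derived from the same F statistic and share this limit. In a fit without 1 nuclei animal the spread came from the other group alone. Scripts were tested on simulated data. Some genes, 1 of them called, are not reported here.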

Additional observations from a re-analysis of the deposited data

Results flagged for a closer look

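The KO effect in Sst nuclei differed by edgeR's interaction test from that in excitatory nuclei for 139 genes, from that in Pvalb nuclei for 7 and from that in nuclei with Adarb2 or Vip for 14, and 31 of these results are given. Against excitatory nuclei, the 10 with the smallest p had log2 differences (Sst minus excitatory) of 3.25 for Hunk, -2.15 for Erbb4, 1.93 for Cdh9, -2.39 for Zfp804b, -1.30 for Kcnip4, -1.43 for Ubash3b, 2.44 for Adamts18, -2.84 for Gm26624, 1.51 for Lama4 and -2.06 for Sorcs3. Against Pvalb nuclei they were 2.27 for Slit3, -1.88 for Rgs6, -1.24 for Brinp3, -2.22 for Ntng1, 1.72 for Synpr, -1.82 for Erbb4 and -1.36 for Slc4a4. Against nuclei with Adarb2 or Vip they were -1.84 for Thsd7b, -1.97 for Erbb4, -2.93 for Zfp804b, -1.51 for Kcnip4, -1.58 for Slc4a4, -2.04 for Gm42950, -1.07 for Dab1, -0.98 for Ncam2, -1.79 for Sorcs3, 1.58 for Sox6, -2.04 for Fat1, 1.38 for Rnf144b, -1.41 for Msra and -0.95 for Brinp3. Zfp804b rested on animal 65 in the Sst nuclei, as given above. The limits given above for Erbb4 and Slc4a4 hold here as well.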

How the results depend on the processing

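The 47 genes called in Sst nuclei became 26 with a threshold of 2 UMIs, 27 in nuclei with at most 1 glial UMI, 97 without the low-count filter and 2 with DESeq2, and with alternatives chosen after seeing the data 17 with gene span in the offset and 20 with each nucleus thinned to 6500 UMIs. The counts stayed within 1.5 times of 47 under the other settings run that kept all animals. Leaving out 1 animal gave 35 to 375 calls, the highest without animal 64. Against excitatory nuclei, 139 calls became 18 with excitatory nuclei drawn to the number of Sst nuclei and 45 to 135 without 1 animal, with 75 without animal 65 and 45 without animal 73. Against Pvalb nuclei leaving out 1 animal gave 10 to 56, and against nuclei with Adarb2 or Vip 9 to 42. Bulk calls were 546 without the filter and 104 to 344 without 1 animal (111, 133 and 104 without controls 64, 65 and 77, and 344 without KO animal 76). The difference in the Sst share reversed to 0.0442 points with a threshold of 5 UMIs and to 1.98 with thinned nuclei. Log2 fold changes reversed for Sst (-0.53 with gene span in the offset, and between -0.47 without animal 65 and 0.85 without 64), Elfn1 (-0.39 without 73 to 0.18 without 60), Lhx6 (-0.0012 without 73 to 0.26 without 60), Tmem132d (0.11 with at most 1 glial UMI, 0.15 with gene span, and -0.67 without 65 to 0.35 without 64), Pak7 (0.25 with gene span, and -0.064 without 64 to 0.041 without 65) and Hs3st4 (-1.60 without 64 to 0.40 without 65). None of these genes was called with all 4 animals. Sst and Elfn1 belong to the rule that chose the nuclei, so their values are a description only. The cause was not tested. Depth limits Trim28, with 23 UMIs over the 209 nuclei, and its log2 ratio also changed sign, from -0.53 without 60 to 0.46 without 73.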
